A study of Mus musculus with 13 samples.

Results

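Messenger RNA of the products of the adult pancreas was followed in 13 mouse NUT carcinomas (mNC). The list held 32 genes of the 56085 in the count table: 19 digestive enzymes of acinar cells with their cofactor, 5 other products of acinar secretory granules, 7 hormones and granule proteins of the islets, and Cftr, the chloride channel of duct cells. The genes were chosen by name, as known acinar, islet and duct products, and matched to the table by Ensembl identifier, and all 32 were found. All mice carried the NCT alleles (NCT+/-), from which Cre makes the fusion oncogene that drives these tumors, and the study compared tumors with and without Sox2. The oral tumors arose under Cre in Krt14-expressing epithelium, with 4 Sox2 WT tumors (KRT14-Cre; NCT+/-) and 2 Sox2 KO tumors whose genotype was written KRT4Cre; NCT+/-; Sox2fl/fl in the labels. The pancreatic tumors arose under Pdx1-Cre, which is active in the progenitors of all pancreatic epithelia and in part of the neighbouring foregut, with 4 Sox2 WT tumors (Pdx1-Cre; NCT+/-) and 3 Sox2 KO tumors (Pdx1-Cre; NCT+/-; Sox2fl; fl). Tumor site and Cre driver were the same split of the samples and cannot be told apart. The tumors were dissected and sequenced whole, so a transcript may come from tumor cells or from any other cell in the piece, and fewer cells of a type and less RNA per cell cannot be told apart. Ages of the mice were not given in the sources used here.

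The exocrine pancreas is built of acinar cells, which make digestive enzymes, mostly as inactive precursors, and store them in zymogen granules, and of ducts that add bicarbonate-rich fluid through the channel encoded by Cftr. The islets lie within this tissue and release insulin (Ins1, Ins2), glucagon (Gcg), somatostatin (Sst), pancreatic polypeptide (Ppy) and amylin (Iapp) into the blood. Acinar genes are switched on together by the PTF1 complex, in which Ptf1a and a basic helix-loop-helix partner bind an E-box (CANNTG) and Rbpjl or Rbpj binds a nearby TGGGAA core.

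The libraries held 11735315 to 120482829 estimated counts per tumor, and the 3 pancreatic KO libraries, of which the smallest held 89562790, were the deepest. WT tumors had 410 to 680 Sox2 counts at the oral site and 1111 to 1487 at the pancreatic site, whereas no KO tumor had more than 2. Oral KO tumor 1 stood apart, with 59.5% of its counts in protein-coding genes against 84.5% to 91.7% in the other tumors. Squamous markers were high in every tumor. The 10 basal squamous genes summed to 13078 to 22650 CPM, counts scaled to 1 common library size with TMM factors, in the pancreatic tumors, and the 32 pancreas products together took between 0.000342% and 0.0491% of all counts. CPM are on the TMM scale unless another is named, and 3 counts, taken as the limit of detection, corresponded to 0.0249 to 0.256 CPM by library.

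The 4 trypsin genes are near-identical, and their sequences are shown because reads from one can be assigned to another. Prss2 encodes a major anionic trypsinogen, and Prss1, Try4 and Try5 are neighbouring trypsinogen genes in the same cluster on mouse chromosome 6. Over their 738-base coding sequences Try4 and Try5 were 97.4% identical, Prss1 and Try4 93.5%, and Prss2 was 89.6% to 91.7% identical to the other genes. Coding bases 340 to 399, counted from the A of the start codon, are printed below from GENCODE M21 on GRCm38, with capitals where a gene differs from Prss2.

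Prss2: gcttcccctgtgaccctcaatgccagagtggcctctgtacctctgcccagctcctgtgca
Prss1: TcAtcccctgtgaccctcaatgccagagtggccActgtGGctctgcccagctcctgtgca
Try4: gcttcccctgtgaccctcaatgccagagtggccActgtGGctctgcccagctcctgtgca
Try5: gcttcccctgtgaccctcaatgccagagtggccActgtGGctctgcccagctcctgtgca

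In this window Try4 and Try5 were the same and each differed from Prss2 at 3 bases, and Prss1 differed at 5. Of the 31-base words in the transcripts, 82.7% of those of Try4, 69.3% of those of Prss1, 59.7% of those of Try5 and 22.5% of those of Prss2 also occurred in another gene. Amy2b is annotated as an unprocessed pseudogene there and shared 60.4% of its words with other genes, above all Amy2a2, and Cela3b shared 26.1%, mostly with Cela3a. Ctrc and Cela2a overlap on one strand of chromosome 4 and shared 19.8% and 16.6%. Values of these 8 genes are therefore uncertain as single genes. The insulin genes, 90.9% identical over the coding sequence, shared only 4.55% (Ins1) and 3.27% (Ins2) of their words, and Ctrb1, Cpa1, Cel, Pnlip and Cftr shared none.

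Promoters are shown for 6 genes, as examples of products that peaked together in 1 tumor (Ctrb1, Cel, Cpa1), of products that were high in most or all pancreatic tumors (Cela1, Reg1) and of an islet hormone (Ins1). Each is the RefSeq sequence from 250 bases before to 50 bases after an annotated start on GRCm38.p6, with E-boxes (CANNTG) and TGGGAA cores, searched on both strands (TTCCCA on the other), in capitals.

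Ctrb1 promoter, chr8:111690961-111691260, minus strand: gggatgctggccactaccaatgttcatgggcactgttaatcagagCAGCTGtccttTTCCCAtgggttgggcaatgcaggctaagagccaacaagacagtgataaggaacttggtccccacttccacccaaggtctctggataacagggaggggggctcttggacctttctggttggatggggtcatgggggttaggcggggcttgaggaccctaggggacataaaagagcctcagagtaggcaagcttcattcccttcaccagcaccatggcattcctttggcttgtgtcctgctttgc
Cel promoter, chr2:28563354-28563653, minus strand: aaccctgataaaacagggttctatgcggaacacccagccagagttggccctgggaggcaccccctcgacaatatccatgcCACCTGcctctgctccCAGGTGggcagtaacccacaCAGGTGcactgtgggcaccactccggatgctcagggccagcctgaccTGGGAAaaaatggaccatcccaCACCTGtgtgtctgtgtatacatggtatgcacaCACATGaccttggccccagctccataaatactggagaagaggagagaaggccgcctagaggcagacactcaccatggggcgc
Cpa1 promoter, chr6:30638968-30639267, plus strand: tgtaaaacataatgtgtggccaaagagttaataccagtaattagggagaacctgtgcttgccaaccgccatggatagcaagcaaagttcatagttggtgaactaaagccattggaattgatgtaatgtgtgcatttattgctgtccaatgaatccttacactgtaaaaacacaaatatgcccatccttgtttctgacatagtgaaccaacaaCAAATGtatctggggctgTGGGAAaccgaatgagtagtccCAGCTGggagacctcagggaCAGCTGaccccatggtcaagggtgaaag
Cela1 promoter, chr15:100687871-100688170, minus strand: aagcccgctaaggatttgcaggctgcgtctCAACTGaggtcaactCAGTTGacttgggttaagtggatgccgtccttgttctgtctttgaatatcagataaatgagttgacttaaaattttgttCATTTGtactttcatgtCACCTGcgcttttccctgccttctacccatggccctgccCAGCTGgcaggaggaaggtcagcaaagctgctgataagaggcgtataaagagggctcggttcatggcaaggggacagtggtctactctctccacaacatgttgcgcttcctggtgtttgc
Reg1 promoter, chr6:78425733-78426032, plus strand: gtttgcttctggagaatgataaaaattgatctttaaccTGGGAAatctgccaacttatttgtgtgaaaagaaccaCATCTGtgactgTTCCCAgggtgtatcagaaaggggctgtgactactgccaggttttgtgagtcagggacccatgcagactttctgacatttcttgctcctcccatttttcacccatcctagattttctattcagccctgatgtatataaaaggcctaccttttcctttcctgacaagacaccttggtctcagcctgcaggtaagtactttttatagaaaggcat
Ins1 promoter, chr19:52264047-52264346, plus strand: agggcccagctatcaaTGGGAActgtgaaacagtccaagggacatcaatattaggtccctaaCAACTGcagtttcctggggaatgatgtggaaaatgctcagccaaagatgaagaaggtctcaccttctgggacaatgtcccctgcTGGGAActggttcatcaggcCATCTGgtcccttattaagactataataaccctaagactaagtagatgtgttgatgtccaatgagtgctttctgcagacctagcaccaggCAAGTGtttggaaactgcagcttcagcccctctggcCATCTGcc

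Of the 32 genes, 27 had a promoter of this length in the RefSeq table. A TGGGAA core was found in 16 of the 27, against 25.6% of 32851 promoters in the table, and an E-box in 23 of the 27, against 72.3%. Both were found in 13 of the 27, against 19.0%, and both without overlap at a distance of at most 20 bases in 7 of the 27, against 5.21%. Ctrb1 had the closest pair, 5 bases apart, while Cela1 had 5 E-boxes and no TGGGAA core. Such letter matches describe the sequence and no binding was measured.

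The acinar enzymes were concentrated in 1 tumor. Pancreatic KO tumor 3 had the highest level of 17 of the 19 enzymes and of 4 of the 5 granule products, and was the only tumor with at least 10 counts of all 19 enzymes and all 5 granule products. Without Cela1 and Rnase1, which had other patterns, the remaining 17 enzymes summed to 389 CPM in pancreatic KO tumor 3 and to 1.26 and 0.93 CPM in pancreatic KO tumors 1 and 2. The pancreatic WT tumors 1 to 4 had 5.06, 16.0, 1.14 and 0.862 CPM, the oral WT tumors 1.41, 1.2, 0.792 and 6.68 CPM and the oral KO tumors 1.49 and 1.99 CPM. For these 17 enzymes, a subset set after the values were seen, the pancreatic tumors other than KO tumor 3 and WT tumor 2 overlapped the range of the oral tumors. The sum of all 19 enzymes was 38.1, 39.7, 41.1 and 21.0 CPM in the pancreatic WT tumors and 7.79, 6.63 and 410.0 CPM in the KO tumors, next to 2.18 to 21.9 CPM in the oral WT tumors and 4.37 and 2.26 CPM in the oral KO tumors. With all 19, the pancreatic WT tumors 1, 2 and 3 also lay above every oral tumor. On the plain total-count scale the 17 enzymes summed to 410.0 CPM in pancreatic KO tumor 3 and to 13.8 CPM in the next highest tumor.

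**Figure D1:**
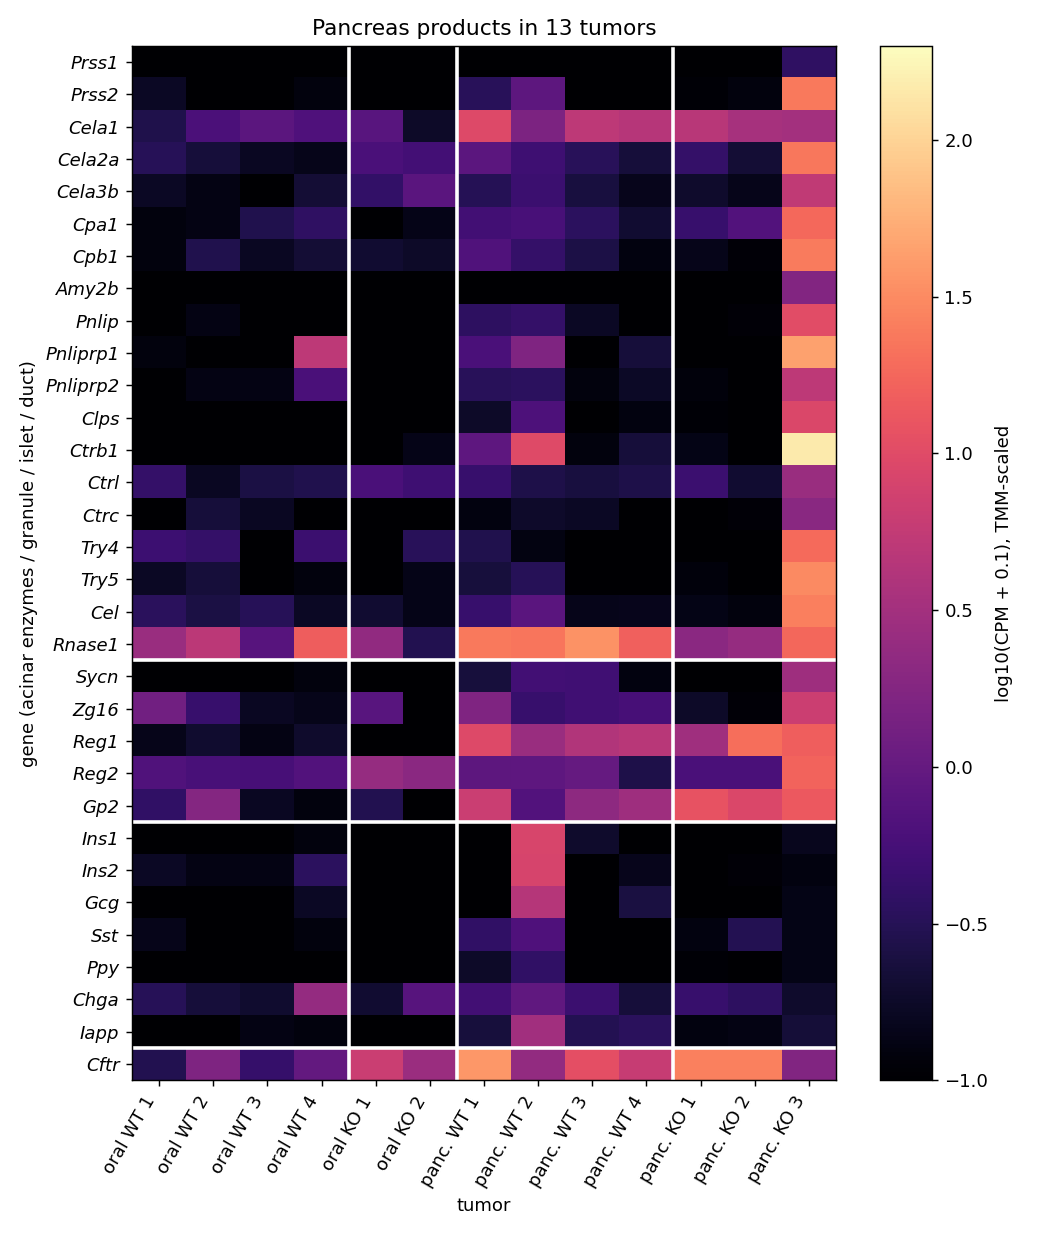
Level of each of the 32 pancreas products (rows, ordered as acinar enzymes, acinar granule products, islet products and Cftr) in each of the 13 tumors (columns, split by group), as log10 of CPM plus 0.1. The acinar rows are bright in pancreatic KO tumor 3, where 17 of 19 enzymes peaked, the islet rows in pancreatic WT tumor 2, and Cela1, Rnase1, Reg1, Gp2 and Cftr across several pancreatic tumors.

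Among the chymotrypsins, Ctrb1, the main chymotrypsinogen, had the highest level per length of the 19 acinar enzymes in pancreatic KO tumor 3, at 164 CPM per kilobase. In pancreatic WT tumor 2 it had 11.2 CPM per kilobase, the highest of the 17 enzymes and below the 22.4 CPM per kilobase of Rnase1. Ctrb1 stood at 0.035, 0 and 144.0 CPM in the pancreatic KO tumors, at 0.787, 9.85, 0.0228 and 0.123 CPM in the WT tumors, at 0.039 CPM (1 count) in oral KO tumor 2 and at 0 in the other oral tumors. A single tumor in each pancreatic group was high, and the remaining pancreatic tumors lay between 0 and 0.787 CPM. It made up 37.0% of the summed reads of the 17 enzymes in pancreatic KO tumor 3 and 61.5% in pancreatic WT tumor 2. Per length the chymotrypsins Ctrl and Ctrc reached only 2.91 and 1.94 CPM per kilobase in pancreatic KO tumor 3, and the level of Ctrl was at 0.0615 to 0.496 CPM in every other tumor.

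The trypsins followed the same tumor. Try5, Prss2 and Try4 stood at 31.5, 23.5 and 18.7 CPM in pancreatic KO tumor 3, and none passed 0.764 CPM in any other tumor. Prss1 was found in that tumor alone, with 32 counts (0.277 CPM), and 69.3% of its sequence words are shared with other genes. Leaving out all 4 trypsins, the other 15 enzymes summed to 336 CPM there, so the pattern did not rest on the shared reads. Try4 was also seen at 0.234 to 0.375 CPM in 4 of the 6 oral tumors.

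The elastase Cela2a had 0.306, 0.112 and 22.9 CPM in the pancreatic KO tumors and 0.735, 0.396, 0.228 and 0.123 CPM in the WT tumors. Cela3b reached 5.27 CPM in pancreatic KO tumor 3 and at most 0.702 CPM in any other tumor. The carboxypeptidases Cpa1 and Cpb1, which trim amino acids from the carboxy end of peptides, were at 18.0 and 24.8 CPM in the same tumor, 30.3 and 43.0 times the next highest tumor. All 4 proteases had their peak in the same tumor.

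The fat-digesting enzymes comprised pancreatic lipase (Pnlip), its relatives Pnliprp1 and Pnliprp2, the lipase cofactor colipase (Clps) and the bile salt-dependent lipase Cel. In pancreatic KO tumor 3 they had 10.4, 44.3, 4.93, 8.84 and 25.7 CPM in that order, and per length Pnliprp1 (27.4 CPM per kilobase) came after Ctrb1, Try5 (39.3) and Prss2 (28.8). Pnliprp1 was also seen in oral WT tumor 4, at 4.96 CPM (216 counts), against 0.0221 CPM or 0 in the other oral tumors. Pnliprp2 was likewise highest among the oral tumors in oral WT tumor 4, at 0.505 CPM, while Pnlip and Clps were at 0 there. Colipase was at 0 in all 6 oral tumors and at 0.538 CPM (19 counts) in pancreatic WT tumor 2. Amy2b, read as amylase sequence, was detected in pancreatic KO tumor 3 alone, at 1.65 CPM (190 counts). The near-identical amylase copies Amy2a2 to Amy2a5 stood at 33.5 to 34.2 CPM each in that tumor and at no more than 2.09 CPM in any other.

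**Figure D2:**
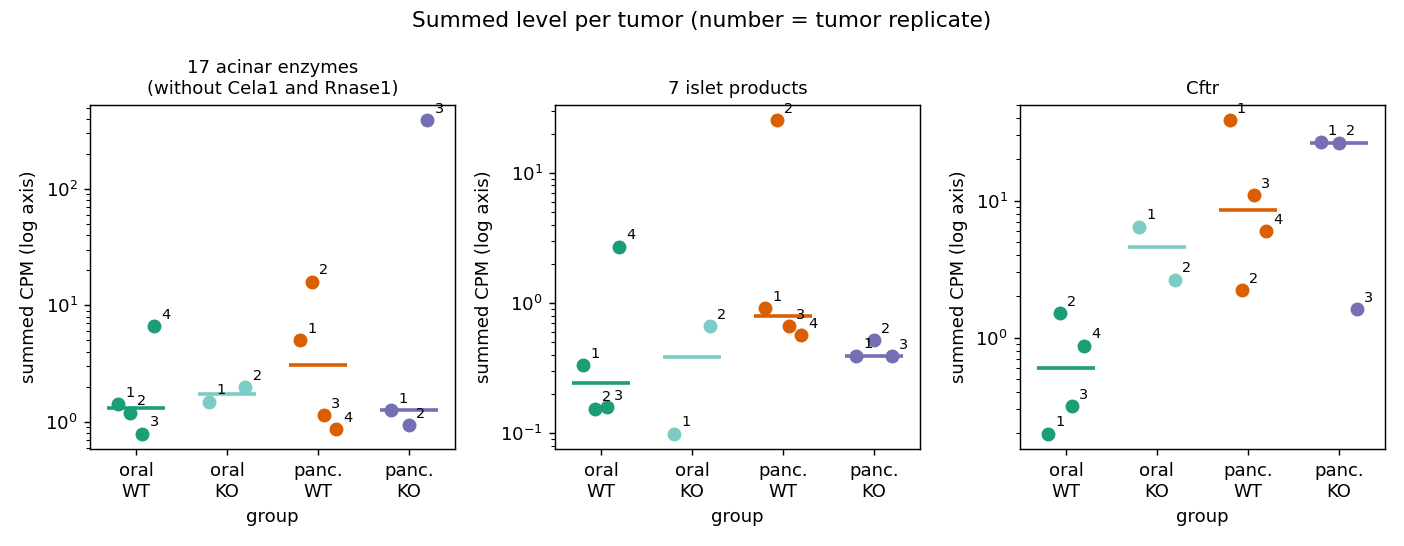
Summed CPM per tumor on log axes for the 17 acinar enzymes without Cela1 and Rnase1, the 7 islet products and Cftr, by group, where each point is 1 tumor with its replicate number and the line is the group median. Pancreatic KO tumor 3 is the highest point for acinar enzymes (389 CPM) and the lowest pancreatic point for Cftr (1.62 CPM), and pancreatic WT tumor 2 is the highest point for islet products (25.3 CPM).

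Cela1 and Rnase1 were spread across tumors. Cela1, an elastase that is also made outside the pancreas, had 9.29, 1.44, 4.94 and 4.48 CPM in the pancreatic WT tumors and 4.62, 3.26 and 3.03 CPM in the KO tumors. The oral WT tumors had 0.176, 0.523, 0.728 and 0.551 CPM and the oral KO tumors 0.695 and 0.078 CPM. All 7 pancreatic tumors lay above all 6 oral tumors, and pancreatic KO tumor 3, the tumor rich in acinar enzymes, had the lowest Cela1 of the 3 KO tumors. Rnase1, the secreted pancreatic-type ribonuclease, which endothelial cells also make, had 23.7, 22.3, 35.0 and 15.7 CPM in the pancreatic WT tumors and 1.91, 2.43 and 17.5 CPM in the KO tumors. In the oral WT tumors it had 2.54, 4.86, 0.665 and 14.6 CPM and in the oral KO tumors 2.18 and 0.195 CPM, so that the oral range overlapped that of the pancreatic KO tumors.

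The granule products split in the same way. Syncollin (Sycn), a zymogen granule membrane protein, had 0, 0 and 2.78 CPM in the pancreatic KO tumors and 0.131, 0.424, 0.41 and 0.0246 CPM in the WT tumors. The granule lectin Zg16 had 0.0786, 0.0112 and 6.52 CPM in the pancreatic KO tumors and 1.55, 0.339, 0.41 and 0.468 CPM in the WT tumors, next to 1.15 CPM in oral WT tumor 1. Both were highest in the tumor rich in acinar enzymes and low in the other KO tumors. Gp2, a glycoprotein of the zymogen granule membrane, had 11.9, 8.81 and 13.5 CPM in the pancreatic KO tumors and 6.43, 0.594, 2.07 and 2.78 CPM in the WT tumors. The KO and WT tumors did not overlap for Gp2, and the oral tumors lay between 0 and 1.72 CPM.

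The Reg genes encode secreted lectin-like proteins made by acinar cells and raised in pancreatic injury. Reg1 had 9.52, 2.55, 4.03 and 4.51 CPM in the pancreatic WT tumors and 2.92, 19.7 and 15.0 CPM in the KO tumors. The 4 oral WT tumors had 0.0317 to 0.0923 CPM and both oral KO tumors 0, so every pancreatic tumor was above every oral tumor. Reg2, its close relative at 78.8% coding identity, had 0.498, 0.504 and 16.5 CPM in the pancreatic KO tumors and 0.761, 0.792, 0.911 and 0.172 CPM in the WT tumors. Reg2 thus peaked in pancreatic KO tumor 3 with the enzymes, whereas Reg1 was highest in pancreatic KO tumor 2, which had 0.93 CPM of the 17 enzymes.

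The islet hormones were concentrated in another tumor, pancreatic WT tumor 2. The 7 islet products summed to 25.3 CPM there, while the other pancreatic WT tumors had 0.918, 0.661 and 0.567 CPM and the KO tumors 0.393, 0.516 and 0.39 CPM. In pancreatic WT tumor 2 Ins1 stood at 8.26, Ins2 at 8.18, Gcg at 4.3, Iapp at 2.94, Sst at 0.566 and Ppy at 0.283 CPM, and these 6 hormones were all highest in this tumor. Per length, Ins2 (8.91 CPM per kilobase), Ins1 (7.78), Gcg (3.95) and Iapp (3.51) led. Pancreatic KO tumor 3, which had the larger enzyme sum, held 3 to 14 counts of each of these hormones. Chga, a granule protein shared by endocrine and nerve cells, was highest in oral WT tumor 4, at 2.32 CPM. Among the pancreatic tumors Chga was highest in WT tumor 2, at 0.82 CPM against 0.0866 to 0.42 CPM in the others. The 25 other islet endocrine genes summed to 79.2 CPM in pancreatic WT tumor 2 and to 75.1 to 153 CPM in the oral WT tumors. Of the 79.2 CPM 59.9 were Cpe, which many other cells also express. Without Cpe the list still did not follow the hormones. It then summed to 19.3 CPM in pancreatic WT tumor 2 and to 44.1, 23.8 and 34.5 CPM in the other pancreatic WT tumors. The pancreatic KO tumors had 22.4, 34.2 and 11.9 CPM. Of the 20 genes of that list with at least 10 counts in some pancreatic tumor, 8 were highest among the pancreatic tumors in WT tumor 2. As examples picked after their values were seen, the granule protein Chgb had 0.934 CPM there and at most 0.0673 CPM in the other pancreatic tumors, and the transcription factor Neurod1 had 0.962 CPM against at most 0.131 CPM. Neurod1 was also high in oral WT tumor 4, at 6.85 CPM. G6pc2, a glucose-6-phosphatase of beta cells, and Resp18 were found in pancreatic WT tumor 2 alone of the 13 tumors, with 8 and 7 counts.

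Cftr had yet another order. It stood at 38.6, 2.23, 11.0 and 5.96 CPM in the pancreatic WT tumors and at 26.6, 26.5 and 1.62 CPM in the KO tumors. The lowest pancreatic values were those of KO tumor 3 and WT tumor 2, the tumors with the highest sums of the 17 acinar enzymes. The oral WT tumors had 0.199, 1.51, 0.317 and 0.873 CPM and the oral KO tumors 6.45 and 2.65 CPM. The oral KO tumors overlapped the pancreatic ones, and the oral WT tumors all lay below them. Over the 16 genes of the ductal list, to which Cftr was not counted, pancreatic KO tumor 3 had 10810 CPM and pancreatic WT tumor 2 had 5104 CPM. These lay within the ranges of the other KO tumors (9716 and 12272 CPM) and the other WT tumors (3618 to 6214 CPM). However, 1 gene, Spp1, gave 8182 of the 10810 CPM and 2395 of the 5104 CPM. The sums therefore do not show how the remaining ductal genes ranked the tumors. Gene by gene, 7 of the 16 were highest among the pancreatic tumors in WT tumor 1, as Cftr was, and 5 in KO tumor 2. Of the others 2 were highest in WT tumor 4, 1 in KO tumor 1 and 1 in WT tumor 2. Whether the ductal genes followed Cftr was not tested. The 16 stomach and intestine markers had sums of 245, 21.0, 55.1 and 35.9 CPM in the pancreatic WT and 83.7, 19.7 and 2.11 CPM in the pancreatic KO tumors. These markers too were highest in pancreatic WT tumor 1 and lowest in pancreatic KO tumor 3, and their part in the Cftr levels was not tested.

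To ask which pancreas products differed between the sites, the 4 pancreatic and 4 oral WT tumors were compared with edgeR's quasi-likelihood test, calling genes at a Benjamini-Hochberg adjusted p under 0.05 over all genes and an absolute log2 fold change above 1. Of 21 pancreas products that passed the count filter, 5 were higher in the pancreatic tumors and 0 were lower, while 7.24% of the 23164 genes tested were called higher and 9.3% lower. The other 11 had too few counts to be tested, among them Ins1 and Gcg, which had at least 10 counts in 1 tumor only. DESeq2, under which 8.66% of all genes were called higher, called 5 products and gave no adjusted p for 4, and its set held Rnase1 in place of Iapp, which got no adjusted p. In edgeR 9 of the 21 had an unadjusted p under 0.05. The share of all genes under that threshold is not given here, so this number cannot be set against it. The median log2 fold change over all 21 tested products was 2.08, against 0.00 over all genes. Such p-values measure the spread between tumors of a group. A product that passed the filter through its high group alone had to lean that way, so the count is a description.

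Reg1 and Cela1 differed most clearly between the sites among the products tested. Reg1 was higher in the pancreatic WT tumors by 6.23 on the log2 scale (SE 0.58, edgeR adjusted p = 0.000551), and Cela1 by 3.35 (SE 0.62, edgeR adjusted p = 0.00584). Cftr was higher by 4.33 (SE 1.01, edgeR adjusted p = 0.0162). For these 3 genes the 4 pancreatic tumors lay above all 4 oral tumors, and each was still called when any 1 tumor was left out, with log2 fold changes of 5.74 to 6.46, 2.85 to 3.66 and 3.12 to 4.95. Iapp (edgeR adjusted p = 0.0228) and Sycn (edgeR adjusted p = 0.0202) rested on few counts. The summed counts of Iapp were 128 in the pancreatic against 2 in the oral WT tumors, a ratio of 51.5 per library size (95% exact interval 14.0 to 430.0), and those of Sycn were 39 against 1, a ratio of 31.4 (5.31 to 1271). These intervals cover counting error only. Of the 128 Iapp counts 104 came from pancreatic WT tumor 2, without which neither gene passed the count filter. Iapp also lost its call when oral WT tumor 1, 2 or 3 was left out (edgeR adjusted p = 0.0575, 0.0605 and 0.05), and Sycn when oral WT tumor 1 or 2 was (edgeR adjusted p = 0.0507 and 0.0518).

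Gp2 and Rnase1 had values of the same direction that did not pass the edgeR test. Gp2 differed by 2.52 (SE 1.15, edgeR adjusted p = 0.149), and by 4.50 without oral WT tumor 2, whose 1.72 CPM was far above the other oral WT tumors (edgeR adjusted p = 0.026). Rnase1 differed by 2.08 (SE 0.77, edgeR adjusted p = 0.082; DESeq2 adjusted p = 0.0117), and by 3.16 without oral WT tumor 4 (edgeR adjusted p = 0.00688). Ctrb1, with 384 summed counts in the pancreatic WT tumors and 0 in the oral ones, was at least 103-fold higher by counts, but 348 of those counts were in pancreatic WT tumor 2 and the test gave an adjusted p of 0.0737 in edgeR. Ins1 had 296 against 1 summed count, a ratio of 238 (95% exact interval 42.4 to 9438), of which 292 counts were in the same tumor.

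**Figure D3:**
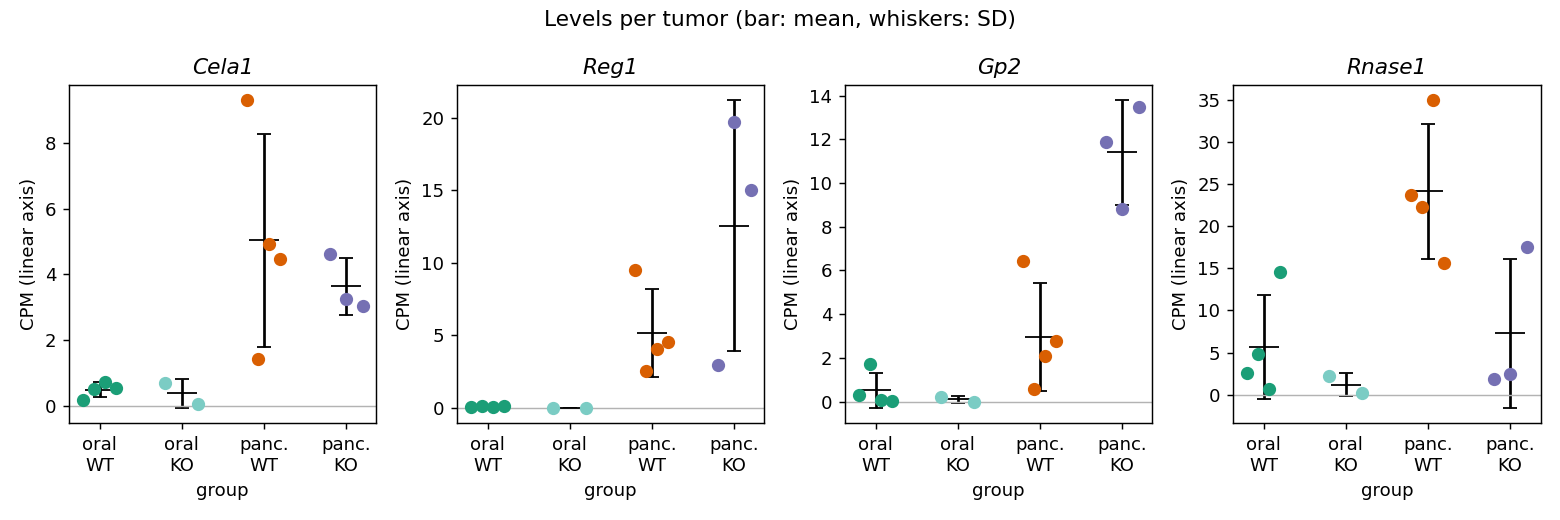
CPM of Cela1, Reg1, Gp2 and Rnase1 in each tumor on linear axes by group, where points are tumors, the horizontal mark is the group mean and the whiskers are the SD. Every pancreatic tumor is above every oral tumor for Cela1 and Reg1, the 3 pancreatic KO tumors are above the 4 WT tumors for Gp2, and Rnase1 is low in 2 of the 3 pancreatic KO tumors.

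The KO tumors of the sites were compared in the same way, with 3 pancreatic and 2 oral tumors. Of 11 products tested, 3 were higher in the pancreatic KO tumors and 0 lower, against 10.7% of the 24787 genes tested that were called higher and 14.6% lower. The called genes were Cela1, at 3.55 on the log2 scale (SE 0.87, edgeR adjusted p = 0.0276), Gp2 (edgeR adjusted p = 0.00787) and Reg1 (edgeR adjusted p = 0.0156). All 3 had under 10 counts in each oral KO tumor and so passed the count filter through the pancreatic tumors alone. Such genes had to lean towards the pancreas, so this count too is a description. Reg1 had 3822 summed counts in the pancreatic KO tumors and 0 in the oral KO tumors, at least 128-fold higher by counts when the floor of 3 counts is taken over the group. For Gp2 the summed counts were 3702 against 2, a ratio of 186 (95% exact interval 51.5 to 1539). For all 3 genes the groups did not overlap. Cela1 lost its call when any 1 of the pancreatic KO tumors was left out (edgeR adjusted p = 0.0543 to 0.0724), and its log2 difference ran from 2.41 without oral KO tumor 2 to 5.53 without oral KO tumor 1. Reg1 lost its call without oral KO tumor 2 (edgeR adjusted p = 0.0597). Gp2 was called whichever tumor was left out, at 5.86 without oral KO tumor 2 to 12.94 without oral KO tumor 1. Without pancreatic KO tumor 3 Reg2 was called lower in the pancreatic KO tumors (log2 -2.07, SE 0.50, edgeR adjusted p = 0.0459), and Cftr was called higher (2.60, edgeR adjusted p = 0.0297) where all 5 tumors had given 2.07 (edgeR adjusted p = 0.208). The 2 oral KO libraries were the shallowest. The 13 enzymes and 8 other products that were not tested had under 10 counts in both. They also reached 10 counts in at most 1 of the 3 pancreatic KO tumors. Ctrb1, for example, had 4, 0 and 16641 counts in pancreatic KO tumors 1 to 3.

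Whether loss of Sox2 changed these products was tested within each site. In the pancreas 22 products were tested and 0 were called, against 0.337% of 24653 genes called higher and 0.292% called lower in KO tumors. At an unadjusted edgeR p under 0.05 there were 5 (Cpa1, Cela2a, Reg2, Gp2 and Iapp), and the share of all genes there is not given. DESeq2, which called 1.6% of all genes higher, called 1, Gp2, while giving no adjusted p for 13 of the 22. Cpa1 differed by 4.37 on the log2 scale (SE 1.42, edgeR adjusted p = 0.201) and Ctrb1 by 4.19 (SE 2.66, edgeR adjusted p = 0.496). The size of these values came from KO tumor 3 alone. Without that tumor Ctrb1 stood at -6.97, Cela2a went from 4.42 to -0.79 and Reg2 from 3.18 to -0.38. Of the 20 products tested both with and without it, 15 were higher in KO tumors with it and 5 without it, and 10 changed sign.

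**Figure D4:**
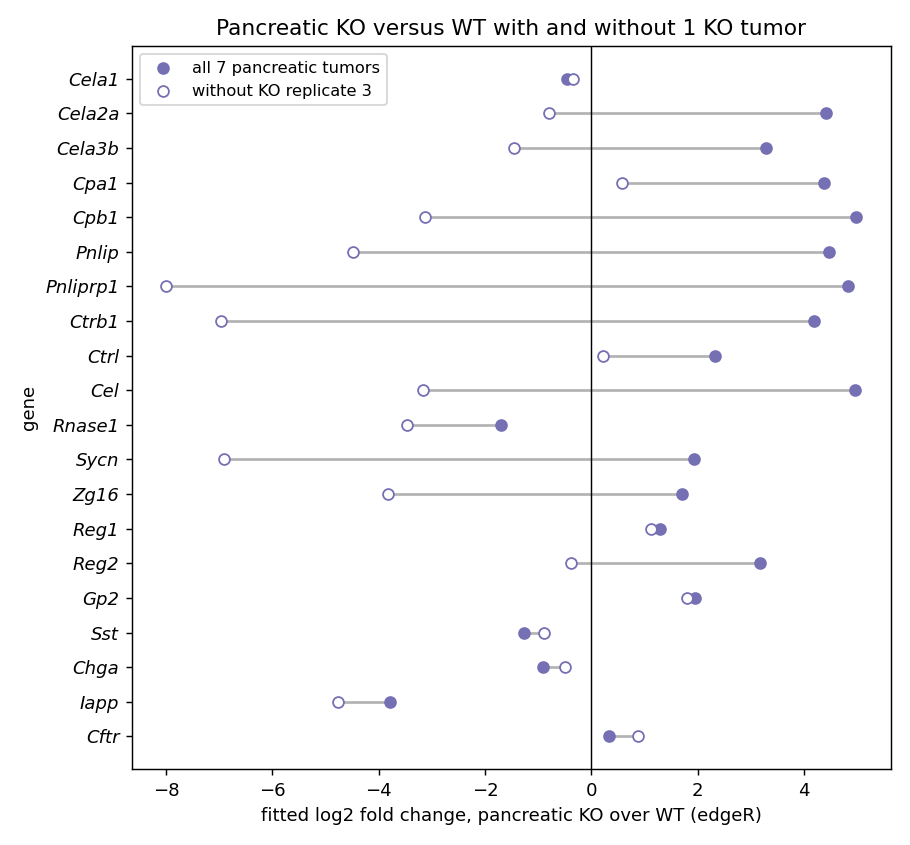
Fitted log2 fold change (edgeR) of pancreatic KO over pancreatic WT tumors for 20 pancreas products, with all 7 tumors (filled) and without KO tumor 3 (open), joined by a line. For 10 of the 20 the value crosses 0 when that tumor is left out, while Gp2, Reg1 and Cela1 stay close to their first value.

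For 2 of the 32 products the 3 KO tumors did not overlap the 4 WT tumors, Gp2, which was higher, and Iapp, which was lower. KO tumors 1 and 2 also lay below all 4 WT tumors for Rnase1, Sycn, Zg16, Cel and Pnliprp2, where KO tumor 3 did not. How many of all genes lay apart in these ways was not counted, so such numbers are descriptions and not results about the products. Gp2 was higher in all 3 KO tumors than in all 4 WT tumors, with a log2 difference of 1.95 (SE 0.65) and an adjusted p of 0.207 in edgeR and 0.0312 in DESeq2. Without KO tumor 3 the difference in Gp2 was 1.80 (SE 0.75, edgeR adjusted p = 0.359). Rnase1 differed by -1.70 (SE 0.80, edgeR adjusted p = 0.36), and without KO tumor 3, which had 17.5 CPM against 1.91 and 2.43 CPM in the other KO tumors, it was called lower at -3.47 (SE 0.37, edgeR adjusted p = 0.0262). Reg1 differed by 1.30 (SE 0.66, edgeR adjusted p = 0.394), Cela1 by -0.46 (SE 0.53, edgeR adjusted p = 0.728) and Cftr by 0.34 (SE 1.10, edgeR adjusted p = 0.914). Iapp had 0.0262, 0.0336 and 0.121 CPM in the KO tumors and 0.131, 2.94, 0.205 and 0.246 CPM in the WT tumors. It differed by -3.78 (SE 1.35, edgeR adjusted p = 0.235), and by -1.62 without WT tumor 2 (edgeR adjusted p = 0.377). This comparison and the comparison of WT tumors between sites share the 4 pancreatic WT tumors, so their values are not independent.

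In the oral tumors 10 products were tested, and Reg2 was called higher in KO tumors, 1 of 10, against 8.81% of 22342 genes called higher and 2.89% lower. Reg2 had 0.574, 0.492, 0.475 and 0.597 CPM in the WT tumors and 2.38 and 1.95 CPM in the KO tumors. The groups did not overlap, and the log2 difference was 2.08 (SE 0.38, edgeR adjusted p = 0.0237). The counts were 15 to 26 per WT tumor and 24 and 50 in the KO tumors. The difference kept its size when either KO tumor, WT tumor 1 or WT tumor 2 was left out, from 1.91 to 2.26, but the edgeR adjusted p was then 0.0592 to 0.0775. It also lost its call among protein-coding genes alone (2.27, edgeR adjusted p = 0.0644), an alternative that bears on the low coding share of oral KO tumor 1. Cftr was next, with 2.74 (SE 0.79, edgeR adjusted p = 0.0595) and no overlap between the groups, and DESeq2, which called 11.7% of all genes higher and 6.26% lower, called it at an adjusted p of 0.00826. Rnase1 differed by -2.25 (SE 1.45, edgeR adjusted p = 0.306).

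The difference between KO and WT was also compared between the sites, in 1 fit of all 13 tumors. Of 25 products tested 0 were called, against 4.85% of 25836 genes with a positive and 7.41% with a negative interaction. At an unadjusted edgeR p under 0.05 there were 2, and the share of all genes there is not given. DESeq2, under which 7.75% of all genes had a positive call, called 2, Gp2 and Sycn, and gave no adjusted p for 16. The Sycn value rests on 0 counts in both oral KO tumors and in pancreatic KO tumors 1 and 2, and on 1 count over the oral WT tumors. Gp2 had an interaction of 4.90 on the log2 scale (SE 2.24, edgeR adjusted p = 0.148) and Reg1 of 6.08 (SE 2.68, edgeR adjusted p = 0.135), both positive, that is, with the larger KO over WT ratio in the pancreas. For Reg1 that value rests on 0 counts in the oral KO tumors, and the Gp2 value ran from 2.92 without oral WT tumor 2 to 9.77 without oral KO tumor 1, in both cases not called.

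Genes of the same pathways outside the list were read beside these values. Of 18 further acinar products, all of which reached 10 counts in some tumor, 12 were highest in pancreatic KO tumor 3. These 12 include the near-identical amylase copies Amy2a2 to Amy2a5, between which reads are split, so they are not 12 separate signals. Between WT tumors of the sites 8 of the 18 products were tested. Those called included the trefoil peptide Tff2 (log2 10.53, SE 1.70, edgeR adjusted p = 0.00379) and the water channel Aqp8, which were higher in the pancreas, and the dipeptidase Dpep1, which was lower. Tff2 had 0.953 CPM in pancreatic KO tumor 3 and 4.11 to 128 CPM in the other pancreatic tumors, so the tumor rich in enzymes had the least of it. Tff1 and Tff3, which were counted in the stomach and intestine list, had the same extremes as Tff2. They were highest in pancreatic WT tumor 1 (71.4 and 111 CPM) and lowest among the pancreatic tumors in KO tumor 3 (0.078 and 0.0433 CPM). Tff2 is therefore uncertain as an acinar product here, and its source was not tested. Among 5 other Reg genes Reg3b was called higher in the pancreatic WT tumors (9.71, SE 1.52, edgeR adjusted p = 0.00337). Tff2, Aqp8 and Reg3b had at most 2 counts in any oral WT tumor and so passed the count filter through the pancreatic tumors alone. Their direction was fixed by that filter, so these calls are descriptions.

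Regulators of the acinar programme were listed apart. Of 8 acinar regulators 7 were tested between WT tumors, and Gata6 (3.01, SE 0.48, edgeR adjusted p = 0.00331), Nr5a2 (2.64, SE 0.59, edgeR adjusted p = 0.0123) and Gata4 (1.76, SE 0.48, edgeR adjusted p = 0.0273) were higher in the pancreatic tumors. Gata6 stood at 2.09 CPM in pancreatic KO tumor 3, below the 5.2 to 11.8 CPM of the other pancreatic tumors. Ptf1a, picked out after its values were seen, was found in the tumor rich in enzymes alone, with 6 counts in pancreatic KO tumor 3 and 0 in the other 12 tumors. The other 7 genes of the list, which all reached 10 counts in some tumor, had their highest level in other tumors. In the islet list Glp1r (4.76, SE 0.93, edgeR adjusted p = 0.00795), Slc2a2 and Mafa were higher in the pancreatic WT tumors, and Glp1r stood at 1.22 CPM in pancreatic WT tumor 2 against 7.38 to 21.7 CPM in the other WT tumors. Glp1r thus went the other way from Chgb and the hormones in that tumor. Gata4 had 2 to 10 counts in the oral WT tumors and Slc2a2 had 1 to 6. Both passed the count filter through the pancreatic tumors alone, so their calls are descriptions.

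Most ductal genes differed between the sites. Between WT tumors 13 of 16 were higher in the pancreas and 1, Aqp1, was lower, against 7.24% and 9.3% of all genes tested. Between KO tumors 11 of 16 were higher, against 10.7% of all genes tested. The list was chosen with earlier results of these data known, and genes that passed the filter through the pancreatic tumors alone had to lean that way. These counts are therefore descriptions. Krt19 was higher by 4.01 (SE 0.79, edgeR adjusted p = 0.00841) and Spp1 by 3.46 (SE 0.78, edgeR adjusted p = 0.0143). Of the salivary and lacrimal list, which covers another source of amylase, 6 of 16 genes reached 10 counts in any tumor. Amy1, the salivary amylase, had 0.287 to 1.04 CPM in the oral WT tumors and 0.0228 to 0.226 CPM in the pancreatic WT tumors (log2 -2.68, SE 0.67, edgeR adjusted p = 0.0197).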

How the data were processed

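Tumors were sequenced with a stranded, rRNA-depleted total RNA kit. Reads were trimmed by the authors (Trim Galore 0.6.10) and quantified with kallisto 0.50.0 on GENCODE M23 transcripts (GRCm38) and summed per gene with tximport; the deposited values are estimated counts per gene, 27.3% of them not whole, with no scaling for depth. Kallisto splits reads shared by near-identical transcripts by likelihood, so levels of such genes are uncertain.

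The estimated counts were rounded, and 55332 of 56085 genes had values. Symbols, types and positions came from GENCODE M21, where 55141 identifiers matched. Every comparison took its own filter, 10 counts or more in 2 or more of its tumors, and was fitted over all genes left with edgeR 4.0.16 in R 4.3.3 (TMM, robust quasi-likelihood, Benjamini-Hochberg adjustment), and calls required an adjusted p below 0.05 with a log2 fold change beyond 1 in either direction. The study used DESeq2, which served here as an alternative (DESeq2 1.42.0). The code was tested on simulated data. Ratios of summed counts carry exact 95% conditional intervals, which cover counting error only. Identities were computed with Biopython 1.88. Per-length values divide by the longest transcript.

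All 32 products were named; from 11 other lists, the genes called in the comparison described, otherwise the 3 with the highest mean pancreatic CPM, plus near-identical copies and Sox2. Members and lists were chosen with earlier results of these data known. Same-numbered tumors were not paired by the labels. The labels do not name the mice, so p-values measure the spread between tumors. Other scalings, filters, fits and left-out tumors were tried. Some genes of these lists are counted but not reported here by name.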

Additional observations from a re-analysis of the deposited data

Results flagged for a closer look

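In groups of 4 tumors, 47 group and product (or summed class) combinations were checked for 1 tumor far from the others, and 15 had one. The cutoff flags about 1 in 20 by chance for independent, normally distributed values. Here the CPM were not transformed, many were near 0, and the sums contain their own members. That share is therefore no measure of chance for these checks. Groups of 2 and 3, which include the pancreatic KO tumors, could not be checked in this way. Pancreatic WT tumor 2 stood above the other pancreatic WT tumors for Ins1 (8.26 CPM), Ins2 (8.18), Gcg (4.3), Iapp (2.94), the islet sum (25.3), Ctrb1 (9.85) and Clps (0.538). Oral WT tumor 4 stood above the other oral WT tumors for Pnliprp1 (4.96 CPM), Pnliprp2 (0.505), Chga (2.32), Ins2 (0.253) and the islet sum (2.71). Single values apart were Zg16 in pancreatic WT tumor 1 (1.55 CPM), Gp2 in oral WT tumor 2 (1.72 CPM) and the sum of the 19 acinar enzymes in pancreatic WT tumor 4, which was low (21.0 CPM).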

How the results depend on the processing

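Limits first: most products had few counts, and the sums of the 17 enzymes and of the islet products in pancreatic tumors rest on 1 or 2 tumors. A filter of 10 counts in every tumor left 1 product to test between WT tumors, with 0 called higher, and 2 between KO tumors, with 0 called higher; it left none for the interaction. DESeq2 called 1 product higher in pancreatic KO tumors, 2 in oral KO tumors and 2 in the interaction. Reg2 in the oral tumors lost its call, leaving 0, in 1 fit of all 13 tumors and among protein-coding genes alone, an alternative chosen after seeing the data. Leaving out 1 tumor in turn gave 3 to 6 products higher between WT tumors of the sites, 2 to 3 higher and 0 to 1 lower between KO tumors, 0 to 1 lower in pancreatic KO tumors (Rnase1, without KO tumor 3) and 0 to 1 higher in oral KO tumors; where that left 1 oral KO tumor, it was assumed to vary like the others.

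The tumor numbers were not taken as pairs, since same-numbered pancreatic tumors deviated together only for number 1 (correlations 0.405, -0.0263 and -0.0843). With the tumor number as a replicate block, 4 products were higher between WT tumors, where Cftr (log2 3.86, edgeR adjusted p = 0.103) and Sycn (4.34, edgeR adjusted p = 0.0572) lost their calls, 5 higher and 1 lower between KO tumors, and 0 in the other comparisons, oral Reg2 included. For pancreatic KO against WT the block turned Ctrb1 to -3.07 and Cftr to -0.13 (log2). Leaving out 1 tumor in turn also gave both signs: Ctrb1 -6.97 to 7.33, Cela2a -0.79 to 4.99, Reg2 -0.38 to 3.72 and Cftr -0.05 to 1.5, and none was called. The cause was not tested. No summed level changed by more than the spread between tumors on the plain total-count scale, and DESeq2 size factors or no count filter changed no count of calls by over 1.5 times.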
